A study of Mus musculus with 61 samples.

Results

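The 10 genes described here are targets of the transcription factor p53 (gene Trp53): Cdkn1a, Mdm2, Ccng1, Trp53inp1, Bax, Bbc3, Pmaip1, Sesn2, Phlda3 and Eda2r. They were taken by name from a table of 55052 genes, and all 10 were among the 17098 genes tested. RNA-seq had been performed on 61 libraries of mouse stembryos, also called gastruloids, bodies grown from mouse embryonic stem cells in suspension, which lengthen after brief exposure to a Wnt agonist. The study used them to follow Hox gene activation, in wild type and in lines with changed CTCF sites or flanking regions at the HoxD cluster. Each library held stembryos pooled from culture plates. From 108 h on, per the study's methods, only elongating stembryos without signs of apoptosis were collected, whereas earlier stages were collected without selection.

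p53 is held at a low level by Mdm2, a ubiquitin ligase that p53 itself activates, so that the pathway carries its own feedback loop. When DNA damage, nucleolar or metabolic stress loosens this control, p53 activates genes that stop the cell cycle, repair DNA, tune metabolism or start apoptosis. Cells of the early mouse embryo are known to be sensitive to p53, and cells that are less fit than their neighbors are removed around gastrulation with p53 activity.

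The wild-type time course ran every 12 h from 72 h to 144 h and ended at 168 h, with 2 libraries at each of the 8 stages. Further wild-type libraries were made at 96 h (4), 120 h (4) and 144 h (2). Wild-type cells were the EmbryoMax 129/SVEV line. Homozygous lines edited in these cells by CRISPR/Cas9 with puromycin selection lacked single CTCF sites (Del(CBS1), Del(CBS2) and Del(CBS4)), lacked a pair of them (Del(CBS1-2), made from Del(CBS1)), lacked the segment named d1-d4 (Del(d1-d4)) or carried an inserted cassette with CTCF sites (Ins(2xCBS-d4d8)). Del(CBS1-5) and Del(sub-TAD1) were instead carried by embryonic stem cell lines derived from blastocysts of mutant mice, which per the study's methods were kept on a mixed BL6 and CBA background, the latter with a fosmid transgene that supplies Mtx2. Mutants were collected at 96 h and 120 h, apart from Del(CBS4), which was taken at 120 h and 144 h, and Del(CBS1-5), which was also taken at 144 h. Every mutant group had 2 libraries, except Del(sub-TAD1) at 96 h with 3. Whether libraries of a group came from separate cultures of a single clone is not given by the labels, so p-values measure the spread between these libraries.

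Values are FPKM, fragments scaled by transcript length and by library size, which allows levels of different genes to be compared. Differences are on the log2(FPKM + 0.1) scale. The libraries fell into 2 sets by their mitochondrial transcripts: in 28 libraries mt-Co2 lay between 576 and 1464 FPKM ("high mt level"), and in 33 libraries at or below 3.85 FPKM ("low mt level"). Controls of a mutant were all wild-type libraries matched in stage and mt level, time course included, which gave 3 controls at 96 h and at 120 h in either set and 4 at 144 h. Within wild type the 2 sets differed in 40.3% of all genes at 96 h and 37.8% at 120 h, with a median over all genes of -0.11 and -0.12 (log2, high minus low). Marker genes followed the labels: the summed level of Pou5f1, Nanog, Zfp42 and Esrrb, markers of pluripotent cells, fell from at least 1195 FPKM at 72 h to at most 16.2 FPKM at 108 h, while that of the somite markers Meox1, Tcf15, Uncx and Pax1 went from at most 1.42 FPKM to at least 407 FPKM. In bulk samples, fewer cells of a type and less RNA per cell cannot be told apart. The width of the deposited intervals implied at least 54.3 fragments behind each value of a member, which covers counting error only.

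A p53 binding site is made of a pair of half-sites, and the consensus half-site (10 bases, equal to its own reverse complement) was looked for in RefSeq promoter windows of GRCm38.p6, from 250 bases before to 50 bases after each start. It was present in 8.36% of 32851 windows and in 9.55% of the 27025 genes with a window. Of the 8 members with a window, 4 held it: Cdkn1a, Mdm2, Ccng1 and Bax. Bbc3, Sesn2, Phlda3 and Eda2r did not. The promoters of Trp53inp1 and Pmaip1 were not analysed here. The stretches are shown because these members include Cdkn1a, which had the smallest adjusted p over the stages, and Mdm2, which closes the p53 feedback loop. Capitals mark the half-sites, and each stretch is given 5′ to 3′ on the strand of its gene, upstream of the start.
Cdkn1a, chr17:29090881-29090962, plus strand: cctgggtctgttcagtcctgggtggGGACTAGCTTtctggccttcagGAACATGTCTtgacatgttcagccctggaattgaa
Mdm2, chr10:117710910-117710969, minus strand: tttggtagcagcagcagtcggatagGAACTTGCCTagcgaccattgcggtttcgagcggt
Ccng1, chr11:40755437-40755496, minus strand: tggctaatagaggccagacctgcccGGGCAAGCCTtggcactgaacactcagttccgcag
Bax, chr7:45467065-45467124, minus strand: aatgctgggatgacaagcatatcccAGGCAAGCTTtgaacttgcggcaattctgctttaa
Of the 11 windows of members, 1 of the Cdkn1a windows held 2 half-sites, 12 bases apart and 42 to 73 bases before the start, which 0.359% of all windows did. Another Cdkn1a window (chr17:29093519-29093818) held none. Only exact matches were looked for. The 10 bases directly after the second Cdkn1a half-site differ from the consensus in their first base alone, and were therefore not marked. Which half-sites pair with each other was not tested. A match in these letters is a description and not a site of binding.

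In wild-type stembryos most of the p53 targets, 8 of 10, fell between 84 h and 96 h. Not all were highest early: Bbc3 had its lowest stage mean at 72 h (7.09 FPKM) and its highest at 168 h (16.2 FPKM), and Sesn2 was highest at 108 h (44.7 FPKM, against 41.0 FPKM at 72 h). All 10 members varied over the 8 stages by the F-test of limma, against 61.8% of all genes, with adjusted p-values from 7.65e-14 for Cdkn1a to 0.00920 for Bax. Levels differed widely between the genes. Bax was the most abundant, with a median of 175 FPKM over the 61 libraries, followed by Ccng1 at 78.0 FPKM, Cdkn1a at 35.5 FPKM and Phlda3 at 30.3 FPKM, and Pmaip1 was the lowest at 4.36 FPKM.

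**Figure D1:**
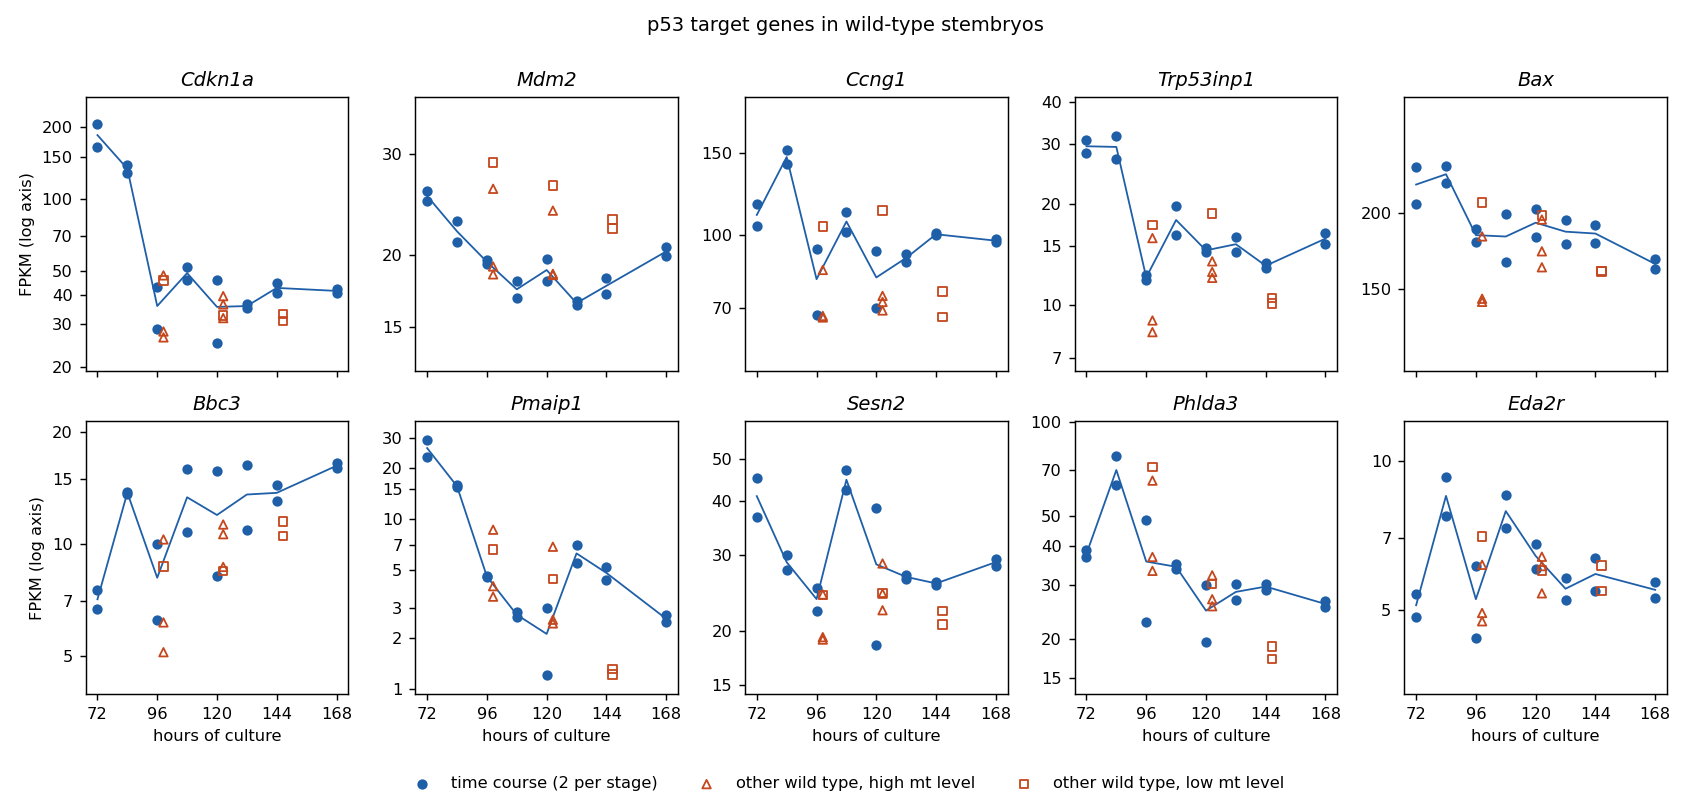
FPKM (log axis) of the 10 p53 targets in wild type by hours of culture. Filled circles are the 2 time-course libraries of each stage with a line through their means, and open symbols (moved slightly right) are the other wild-type libraries, triangles with high and squares with low mt level. Cdkn1a and Pmaip1 stood far higher at 72 h and 84 h than later, and Ccng1, Bbc3, Phlda3 and Eda2r were higher at 84 h than at 72 h and 96 h.

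Cdkn1a encodes the cyclin-dependent kinase inhibitor p21, which halts the cell cycle. It measured 165 and 205 FPKM in the 72 h libraries and 139 and 129 FPKM at 84 h, then 42.9 and 28.8 FPKM at 96 h. From 96 h to 168 h its level stayed between 25.02 and 52.1 FPKM in the time course, so that every later library was below every library of 72 h and 84 h. The step from 84 h to 96 h was -1.93 ± 0.20 (log2 ± SE; adjusted p = 5.44e-09), and from 72 h to 168 h Cdkn1a fell by 2.15 on the log2 scale (adjusted p = 4.35e-11).

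Pmaip1 encodes Noxa, a BH3-only protein that binds the anti-apoptotic protein Mcl1. It measured 28.8 and 23.2 FPKM at 72 h, 15.3 and 15.8 FPKM at 84 h and 4.65 and 4.53 FPKM at 96 h. Its lowest stage mean came at 120 h, with 1.21 and 3.02 FPKM, and at 132 h the libraries stood at 5.53 and 7.02 FPKM. The step from 84 h to 96 h was -1.74 ± 0.34 (adjusted p = 0.000226), that from 120 h to 132 h was 1.65 ± 0.34 (adjusted p = 0.00523), and the whole change from 72 h to 168 h was -3.27 ± 0.34 (adjusted p = 4.14e-10). The rise at 132 h was lost when replicate 1 of 120 h was left out (adjusted p = 0.363), and also without replicate 2 of 132 h.

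At the 84 h to 96 h step, 8 of the 10 members fell and none rose, where 20.7% of all genes changed, and the median over the members was -0.84 against -0.01 over all genes. Trp53inp1, an autophagy and stress protein that supports p53 activity, went from 31.8 and 27.1 FPKM to 11.9 and 12.3 FPKM (-1.27 ± 0.21, adjusted p = 1.45e-05). Ccng1, a cyclin that recruits a phosphatase to Mdm2, went from 152 and 142 FPKM to 93.6 and 67.5 FPKM. Phlda3, an inhibitor of Akt signaling, went from 77.6 and 62.7 FPKM to 48.6 and 22.7 FPKM. For these genes no library of 96 h reached the level of 84 h. Eda2r, a death receptor of the TNF receptor family, Bbc3 and Bax fell as well, by 0.70, 0.79 and 0.33. The call of Bax (adjusted p = 0.0428) was lost with each of the 4 libraries left out, and that of Bbc3 in 3 of 4 such fits. Mdm2 and Sesn2 did not pass the test at this step. Among 27 other p53 targets tested, listed from general knowledge, 14 fell and none rose, with a median of -0.55. The 2 largest falls were those of Perp, a desmosomal protein (-2.25, adjusted p = 0.0359), and Dcxr, a sugar reductase (-1.59, adjusted p = 6.13e-07). Without replicate 2 of the 96 h stage, 5 of the 8 member calls remained, and with only the libraries of these 2 stages in the fit 1 did.

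Several members rose before this fall. At 84 h against 72 h, 3 of 10 members rose and none fell, against 16.3% of all genes. Bbc3 encodes Puma, another BH3-only protein, and went from 7.49 and 6.69 FPKM to 13.7 and 13.8 FPKM (0.95 ± 0.27, adjusted p = 0.0110). Phlda3 went from 38.7 and 36.7 FPKM to 77.6 and 62.7 FPKM (0.89 ± 0.25, adjusted p = 0.0120). Eda2r went from 4.85 and 5.37 FPKM to 9.26 and 7.73 FPKM (0.72 ± 0.13, adjusted p = 0.000102). The Eda2r call remained with each of the 4 libraries left out in turn, whereas the calls of Bbc3 and Phlda3 were each lost in 3 of 4 such fits. Cdkn1a and Pmaip1 did not rise with them.

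Later steps moved single members. At 108 h against 96 h, 2 of 10 members rose, against 9.45% of all genes. One was Sesn2, a sestrin that restrains mTORC1 and is also activated by ATF4, the factor of the amino acid and unfolded protein response: it went from 25.2 and 22.2 FPKM to 42.4 and 47.1 FPKM (0.92 ± 0.20, adjusted p = 0.00200). At 120 h it measured 18.5 and 38.5 FPKM (-0.74 ± 0.20, adjusted p = 0.0167), the single member called among 10, against 7.06% of all genes. This fall was lost without replicate 1 of 120 h (adjusted p = 0.730) and without either library of 108 h. Of 11 ATF4 targets tested, Sesn2 among them, 6 rose at 108 h (1 of these, Atf5, was listed at 0 in some libraries), for example Asns, asparagine synthetase (0.93, adjusted p = 0.0110), and Trib3 (1.47, adjusted p = 0.00533). Sesn2 itself varied with Asns over the 61 libraries (Pearson r = 0.89, a description over libraries that share groups), the gene most like it of all tested. The part of ATF4 or of p53 in the level of Sesn2 was not tested. The other member called at 108 h was Eda2r (0.60 ± 0.13, adjusted p = 0.00235), which lost its call without replicate 1 of 108 h and without replicate 2 of 96 h (adjusted p up to 0.189). Pmaip1 was the single member called at 132 h against 120 h, where 2.46% of all genes were. No member was called at 144 h against 132 h (5.42% of all genes, 0 members at an unadjusted p under 0.05) or at 168 h against 144 h (9.87% of all genes, 1 member at an unadjusted p under 0.05) by limma.

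From 72 h to 168 h, 5 members fell and 1 rose, against 48.2% of all genes. Trp53inp1 (-0.90 ± 0.21), Bax (-0.43 ± 0.12) and Sesn2 (-0.50 ± 0.20) fell besides Cdkn1a and Pmaip1, and the call of Bax was lost without replicate 2 of 72 h and that of Sesn2 in 3 of 4 fits that left out a library. Bbc3 was the one that rose, from 7.49 and 6.69 FPKM to 16.5 and 16.0 FPKM (1.19 ± 0.27, adjusted p = 0.000301). Bax and Bbc3 are both pro-apoptotic, Bax as the pore-forming protein and Bbc3 as an activator of it. The stage means of Bbc3 were negatively correlated with those of Mdm2 (r = -0.52), Pmaip1 (-0.46), Bax (-0.41) and Cdkn1a (-0.35) over the 8 stages, whereas Cdkn1a ran with Trp53inp1 (0.95) and Pmaip1 (0.88). Over the 45 pairs of members the median was 0.53, and 36 were positive, with a median of 0.0055 over all pairs of genes. These are descriptions over 8 points that share the course of the culture.

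Transcripts of most regulators of p53 were not called at the 84 h to 96 h step at which the targets fell. Trp53 itself had stage means between 137 and 189 FPKM, with an F-test adjusted p of 0.0132. At 96 h against 84 h, none of 15 regulators tested rose and 2 fell: Trp73, a relative of p53 (2.67 to 0.197 FPKM, -3.40, adjusted p = 1.58e-05), and Chek2, a kinase of the DNA damage response (-0.50, adjusted p = 0.0420). Mdm4, the partner of Mdm2, fell at 108 h (-0.56, adjusted p = 0.0309). Of 16 genes of the apoptosis machinery, 5 rose at 84 h and 4 fell at 96 h, Bak1, a pore-forming relative of Bax, among the latter (-0.67, adjusted p = 0.000118). The marker lists moved at the same step: the 4 pluripotency markers summed to between 544 and 574 FPKM at 84 h and between 40.4 and 70.8 FPKM at 96 h, where 1 of the 4 passed the test (Pou5f1), and all 4 markers of neuro-mesodermal progenitors fell. Their part in the fall of the p53 targets was not tested.

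Wild-type libraries of 1 stage differed in their p53 targets, and at 96 h all 10 members did so in the same direction. There, replicates 3 and 4 of the libraries outside the time course lay above the mean of the 6 wild-type libraries for all 10 members, with medians of 0.33 and 0.37 (log2), and replicates 1 and 2 lay below it for all 10, with medians of -0.30 and -0.25. Of all genes, 51.6% and 52.2% lay above the mean in replicates 3 and 4, and 36.2% and 36.6% in replicates 1 and 2. Cdkn1a, for example, measured 26.5, 28, 48.1 and 45.8 FPKM in replicates 1 to 4, and Phlda3 33.2, 36.8, 64.9 and 71.6 FPKM. The high replicates belong to different mt levels.

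The 120 h libraries are other samples, and the same replicate numbers stood apart there in Mdm2. It measured 18.5 and 18.6 FPKM in replicates 1 and 2 against 23.9 and 26.4 FPKM in replicates 3 and 4. Bax, Pmaip1, Trp53inp1, Sesn2 and Phlda3 were also higher in both of the latter, and Cdkn1a and Eda2r lower, where 29.1% of all genes were higher and 19.9% lower. Pmaip1, for example, measured 2.44 and 2.56 FPKM against 6.87 and 4.46 FPKM, and Cdkn1a 39.4 and 36.4 FPKM against 31.9 and 32.7 FPKM. In the time course, replicate 1 of 120 h lay below the stage mean for 9 of 10 members (median -0.26) and replicate 2 above it for 9 (median 0.15), while 51.8% and 48.9% of all genes lay above it. At 144 h both time-course libraries had higher values than both other wild-type libraries in 8 members, against 34.5% of all genes, Pmaip1 most of all with 4.40 and 5.24 against 1.23 and 1.32 FPKM, but lower values of Mdm2 with 18.3 and 17.1 against 22.3 and 23.1 FPKM. The libraries numbered 3 at 96 h and 120 h also stood apart in Zfp42. At 96 h it measured 11.7 FPKM in replicate 3 against 0.765 and 0.713 FPKM in replicates 1 and 2. At 120 h the values were 11.8 against 1.47 and 1.198 FPKM. In replicate 4 the pluripotency markers summed to 39.3 FPKM at 96 h, against 29.8, 31.6 and 108 FPKM in replicates 1 to 3. The sums of 120 h were 20.7 against 8.84, 8.31 and 86.1 FPKM. Replicates 3 and 4, alike in the direction of the members at 96 h, thus differed in these markers. Whether the marker difference bears on the p53 targets was not tested.

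**Figure D2:**
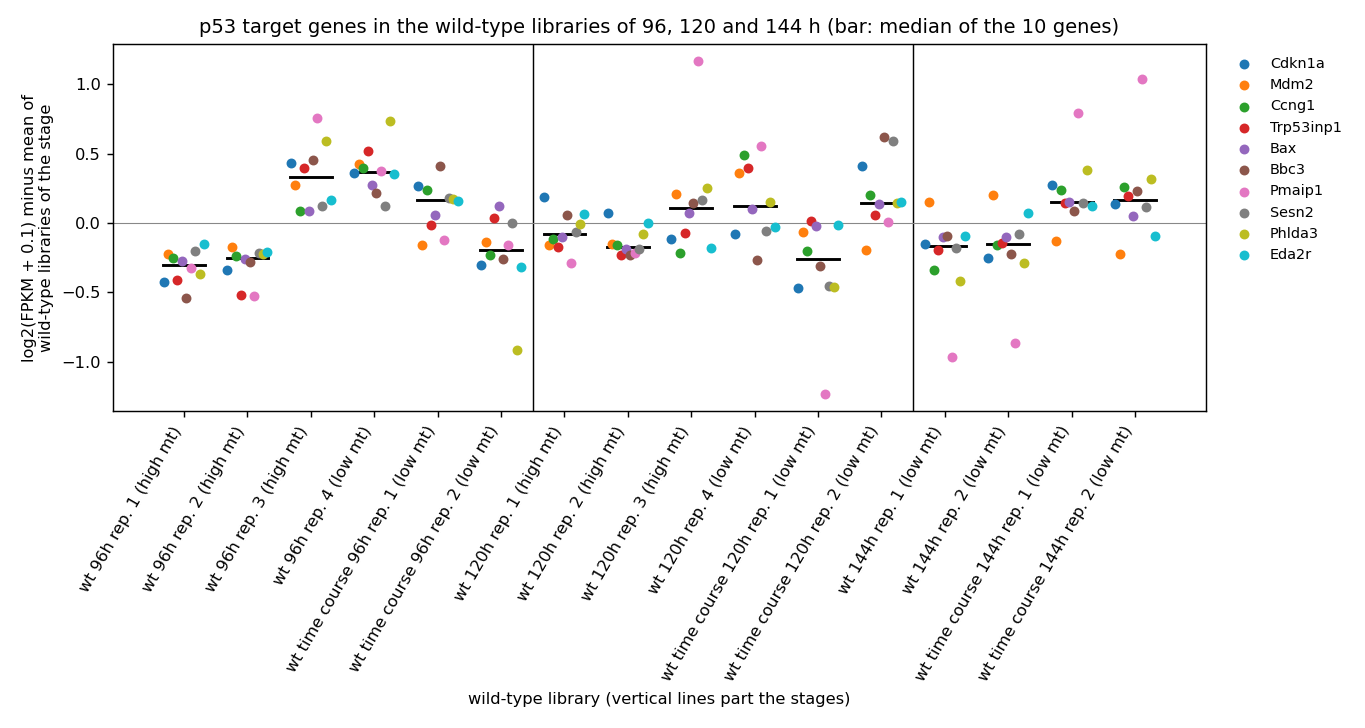
Each of the 16 wild-type libraries of 96 h, of 120 h and of 144 h, with the 10 members as log2(FPKM + 0.1) minus the mean of the wild-type libraries of that stage. Colors are genes and bars the median of the 10. At 96 h the points of replicates 3 and 4 all lie above 0 and those of replicates 1 and 2 all below it.

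Taken as deviations from the mean of their genotype, stage and mt level, the members were correlated over the 61 libraries in 44 of 45 pairs, with a median r of 0.49 against 0.0045 over all gene pairs, highest for Ccng1 with Phlda3 (0.82). These values rest on the wild-type libraries. In the 35 mutant libraries alone, an alternative chosen after seeing the data, 23 of 45 pairs were positive and the median was 0.02. Groups of 2 libraries give mirrored deviations and share the wild-type experiments, so the values are a description.

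Sets of wild-type libraries were also compared with each other. Of the members, 1 was called between the mt levels at 96 h (Bax, -0.30 ± 0.09, adjusted p = 0.00552) and 1 at 120 h (Ccng1, -0.33 ± 0.13, adjusted p = 0.0480), both lower in the high set, with overlapping groups. The Bax call was lost without replicate 1 of 96 h and the Ccng1 call in 5 of 6 fits that left out a library. Dividing by median-of-ratios size factors ended both calls, and scaling to equal sums without mitochondrial genes raised them to 13 of 20. The wild type of 120 h and 96 h outside the time course was compared in the high mt set only, replicates 1 to 3 of each stage. Between them 0 of 10 members were called by limma, against 24.2% of all genes, and 3 had an unadjusted p under 0.05. Without replicate 3 of 96 h, 4 were called, all higher at 120 h.

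Against wild type, 18 of 170 member values were called in the mutants, 16 higher and 2 lower, in 6 of 17 comparisons, where 6.24% of all gene tests were called. The calls were not spread evenly over genes: Mdm2, Trp53inp1, Sesn2 and Pmaip1 each rose in 3 comparisons and Bax and Bbc3 in 2, Pmaip1 and Bbc3 each fell in 1, and Cdkn1a, Ccng1, Phlda3 and Eda2r were called in none. Cdkn1a, the target with the largest change in time besides Pmaip1, stayed between -0.40 and 0.55 (log2) in all 17 comparisons. The blastocyst-derived lines held 15 of the 18 calls, and 67.1% of the calls over all genes.

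**Figure D3:**
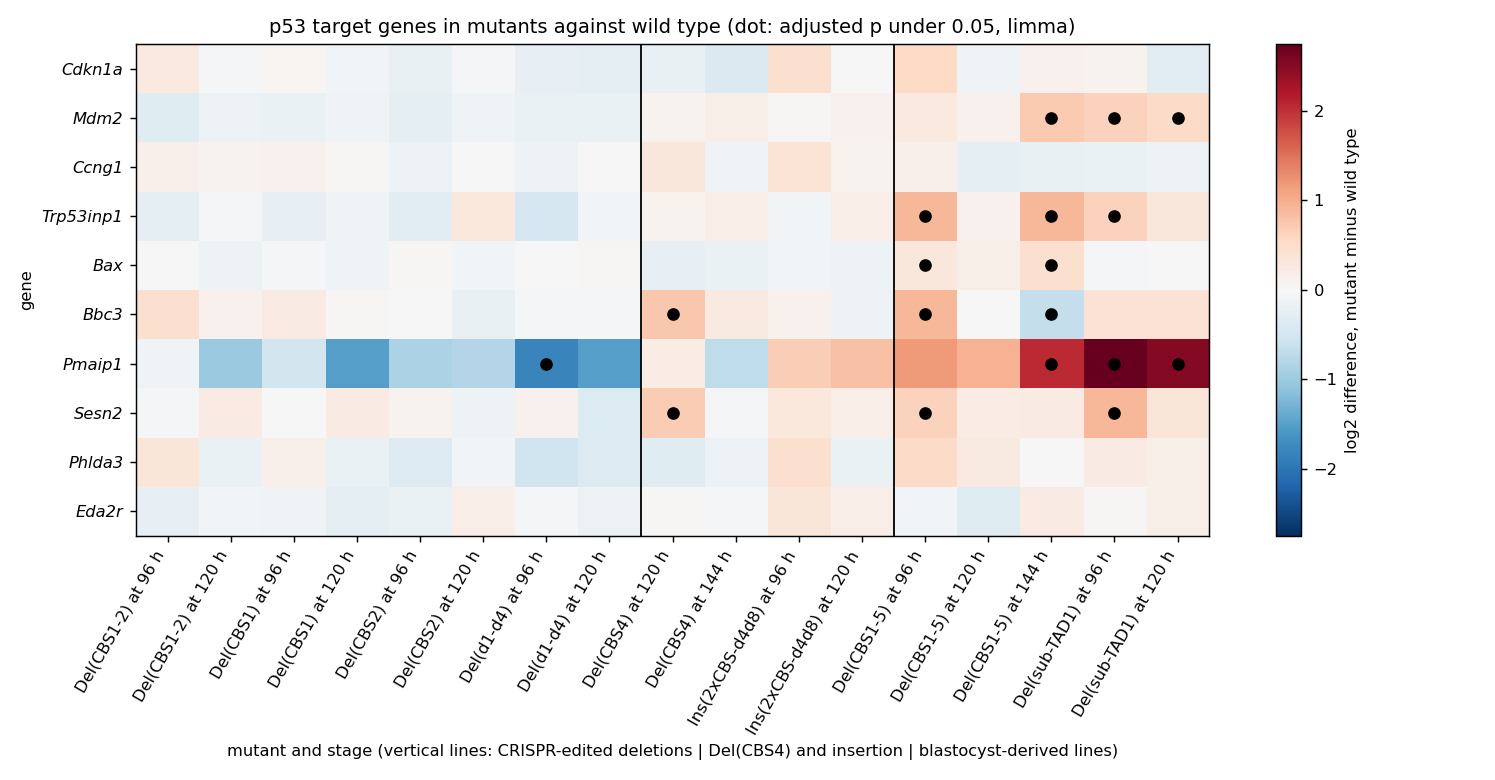
Log2 difference of each member between a mutant and wild type of the same stage and mt level, red higher and blue lower in the mutant. Black dots mark values with an adjusted p under 0.05 (limma). Pmaip1 spans the widest range, from -1.82 in Del(d1-d4) at 96 h to 2.74 in Del(sub-TAD1) at 96 h.

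In the edited deletion lines of the high mt set 1 member value was called. By limma, none of the 10 members was called in Del(CBS1) at 96 h (0.216% of all genes called) or at 120 h (1.20%), in Del(CBS1-2) at 96 h (1.00%) or at 120 h (0.608%), or in Del(CBS2) at 96 h (0.228%) or at 120 h (0.199%). At an unadjusted p under 0.05 there were 0, 2, 1, 1, 0 and 0 members in these comparisons. In Del(d1-d4), Pmaip1 fell at 96 h, the single call where 0.626% of all genes were called, and none was at 120 h (0.760% of all genes, 2 members at an unadjusted p under 0.05). Pmaip1 measured 1.48 and 1.203 FPKM in Del(d1-d4) at 96 h against 4.03, 3.50 and 8.64 FPKM in wild type (-1.82 ± 0.44, adjusted p = 0.0345). The mutant libraries lay below all controls, and the call was lost without wild-type replicate 3 and without either mutant library (adjusted p at most 0.323). Taking the 4 lines together, 0 of 10 members were called at 96 h (0.158% of all genes, 3 members at an unadjusted p under 0.05) and 0 at 120 h (0.310% of all genes, 1 member). That member was Pmaip1: at 120 h the 8 edited libraries measured 1.05 to 2.37 FPKM, below all controls (2.44, 2.56 and 6.87 FPKM), a difference of -1.22 ± 0.33 that did not pass the test (adjusted p = 0.103).

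Del(CBS4) at 120 h had higher Sesn2 and Bbc3, 2 of 10 members against 12.4% of all genes. Sesn2 measured 42.2 and 42.3 FPKM against 24.5, 18.5 and 38.5 FPKM in wild type (0.70 ± 0.18, adjusted p = 0.00771). Bbc3 measured 17.1 and 17.5 FPKM against 8.46, 8.20 and 15.7 FPKM (0.74 ± 0.24, adjusted p = 0.0397). In both genes the mutant lay above all controls, of which replicate 2 of the time course was close to it, and leaving out replicate 1 of the time course ended both calls, as did leaving out either mutant library, and the Bbc3 call was also lost without wild-type replicate 4. Of 11 ATF4 targets, Sesn2 among them, 3 rose and none fell, with Asns at 0.68 (adjusted p = 0.0424) and Atf5, listed at 0 in some libraries. In the same libraries all 4 endoderm markers were lower, summing to between 3.15 and 4.004 FPKM against 15.8 to 98.3 FPKM in the controls, and 3 of 4 spinal cord markers were higher. Their part in these values was not tested. At 144 h no member was called in Del(CBS4) by limma (3.42% of all genes, 1 member at an unadjusted p under 0.05).

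In Ins(2xCBS-d4d8), 0 of 10 members were called at 96 h (9.91% of all genes, 3 members at an unadjusted p under 0.05) and 0 at 120 h (4.35% of all genes, 0 members) by limma. Without wild-type replicate 4, 3 members were called at 96 h, Ccng1, Phlda3 and Eda2r, all higher.

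In the Del(CBS1-5) line, 4 of 10 members were higher at 96 h, and 4 were higher and 1 lower at 144 h. At 96 h, the 4 members stood against 11.9% of all genes called, and the median over the members was 0.53 against 0.02 over all genes. Trp53inp1 measured 20.03 and 20.1 FPKM against 9.03, 8.34 and 15.8 FPKM in wild type (0.91 ± 0.17, adjusted p = 0.000413). Bbc3 measured 13.5 and 12.6 FPKM against 5.11, 6.15 and 10.3 FPKM (0.92 ± 0.24, adjusted p = 0.0110). Both mutant libraries were above all 3 controls in either gene, and wild-type replicate 3 was the closest. Bax (0.32 ± 0.10, adjusted p = 0.0269) and Sesn2 (0.62 ± 0.18, adjusted p = 0.0193) rose less. Between 1 and 8 members were called when a library was left out: Trp53inp1 in each such fit, Bax, Bbc3 and Sesn2 in 1 of 5, and 8 without wild-type replicate 3, with Cdkn1a, Mdm2, Pmaip1 and Phlda3 added. Among the 27 other p53 targets 12 rose and none fell, with Perp at 2.28 (adjusted p = 0.0332) and Btg2, an antiproliferative gene, at 1.64 (adjusted p = 0.000174) the largest.

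At 120 h no member was called in Del(CBS1-5) by limma (7.85% of all genes, 2 members at an unadjusted p under 0.05). Trp53inp1 measured 13.4 and 14.4 FPKM there, against 12.6, 12.1 and 13.5 FPKM in wild type, and Pmaip1 6.43 and 7.32 FPKM against 2.44, 2.56 and 6.87 FPKM. Without wild-type replicate 3, Pmaip1 was called higher and Eda2r lower.

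At 144 h, 4 members rose and 1 fell in Del(CBS1-5), against 30.7% of all genes. Pmaip1 measured 11.7 and 9.80 FPKM against 1.23, 1.32, 4.40 and 5.24 FPKM (2.06 ± 0.42, adjusted p = 0.000228). Mdm2 measured 33.9 and 31.9 FPKM against 22.3, 23.1, 18.3 and 17.1 FPKM (0.71 ± 0.14, adjusted p = 0.000162). Trp53inp1 measured 23.5 and 20.7 FPKM against 10.1, 10.54, 12.9 and 13.3 FPKM (0.91 ± 0.16, adjusted p = 3.34e-05). In these genes no mutant library overlapped the controls, and the calls remained with each library left out. With only the groups compared in the limma fit, the call of Pmaip1 was lost (adjusted p = 0.150) and those of Mdm2 and Trp53inp1 were kept. Bax rose by a smaller amount (0.45 ± 0.09, adjusted p = 0.000255), and Bbc3 fell (-0.66 ± 0.23, adjusted p = 0.0276), with 6.37 and 9.35 FPKM against 11.49, 10.52, 13.04 and 14.4 FPKM. The fall of Bbc3 was lost without replicate 1 of the mutant and without either time-course library (adjusted p up to 0.409).

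The effect of Del(CBS1-5) on Bbc3 differed between stages by its own test, which compares the effects and not their signs. It was 1.58 lower at 144 h than at 96 h on the log2 scale (-1.58 ± 0.34, adjusted p = 0.00168). Bbc3 was the single member called there, where 11.7% of all genes were. Between 144 h and 120 h the effect was larger at 144 h for Trp53inp1 (0.79 ± 0.23, adjusted p = 0.0320) and Eda2r (0.56 ± 0.16, adjusted p = 0.0291), 2 of 10 members against 7.66% of all genes, each lost in 6 of 11 fits that left out a library. Between 120 h and 96 h, 0 members were called (0.0819% of all genes, 3 at an unadjusted p under 0.05). By limma, no member was called for a difference between stages in Del(CBS1) (0.0117% of all genes, 0 members at an unadjusted p under 0.05), Del(CBS1-2) (0.0351%, 0), Del(CBS2) (0.0117%, 2), Del(CBS4) (2.55%, 1), Del(d1-d4) (0.0292%, 0), Del(sub-TAD1) (3.49%, 1) or Ins(2xCBS-d4d8) (0.193%, 0). Stages of Del(CBS1-5) and of Del(sub-TAD1) also differ in mt level. The 144 h libraries of Del(CBS1-5) and the 96 h libraries of Del(sub-TAD1) belong to the low set, and their other libraries to the high set.

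Pluripotency markers were also higher in Del(CBS1-5). At 144 h all 4 rose, and their sum was 262 and 264 FPKM against 2.22 to 32.96 FPKM in the controls. At 96 h 3 of 4 rose, with sums of 218 and 225 FPKM against 29.8 to 108 FPKM. At 120 h 3 of 4 rose, with sums of 135 and 154 FPKM against 8.31 to 86.1 FPKM. At 144 h, 3 of 4 markers of neuro-mesodermal progenitors and 4 of 4 of presomitic mesoderm fell. None of the 4 pluripotency markers was at 0 in these groups, and their part in the p53 targets was not tested. Among regulators of p53, 6 of 15 rose at 144 h and none fell, with Trp73 (0.0961 to 1.18 FPKM, adjusted p = 2.89e-05) and Cdkn2a, which encodes the Mdm2 inhibitor p19Arf (4.42 to 16.3 FPKM, 1.84, adjusted p = 4.53e-06), the largest. Trp53 itself was not among them.

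Del(sub-TAD1) had the highest Pmaip1 of the data set. At 96 h its 3 libraries measured 35.3, 34.5 and 36.0 FPKM, against 6.63, 4.65 and 4.53 FPKM in wild type. The mutant libraries were above every other of the 61 libraries, the 72 h stage included, and the difference was 2.74 ± 0.39 (adjusted p = 7.41e-06). At 120 h Pmaip1 measured 18.3 and 23.6 FPKM against 2.44, 2.56 and 6.87 FPKM (2.53 ± 0.44, adjusted p = 0.000225). Both calls remained with each library left out, with adjusted p-values of at most 0.000141 at 96 h and 0.0164 at 120 h. With only the groups compared in the limma fit, the 96 h call was kept and the 120 h call was lost (adjusted p = 0.129).

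Mdm2 rose at both stages as well. It measured 41.4, 31.0 and 32.0 FPKM at 96 h against 29.0, 19.3 and 19.6 FPKM (0.63 ± 0.13, adjusted p = 0.00128), and 28.9 and 29.7 FPKM at 120 h against 18.5, 18.6 and 23.9 FPKM (0.54 ± 0.15, adjusted p = 0.0226). The groups did not overlap at either stage, although wild-type replicate 4 came within a few FPKM at 96 h, and the call at 120 h was lost in 4 of 5 fits that left out a library (without either mutant library and without wild-type replicate 1 or 2). Trp53inp1 (17.4, 24.2 and 22.7 against 17.3, 11.9 and 12.3 FPKM, 0.64 ± 0.15, adjusted p = 0.00424) and Sesn2 (0.91 ± 0.16, adjusted p = 0.000169) rose at 96 h and were not called at 120 h, though no member's effect differed between these stages by its own test. In all, 4 of 10 members were called at 96 h, against 14.1% of all genes, and 2 at 120 h, against 6.65%. Cdkn1a did not pass the test, with 41.3, 40.2 and 42.5 FPKM at 96 h, inside the controls of 45.8, 42.9 and 28.8 FPKM.

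**Figure D4:**
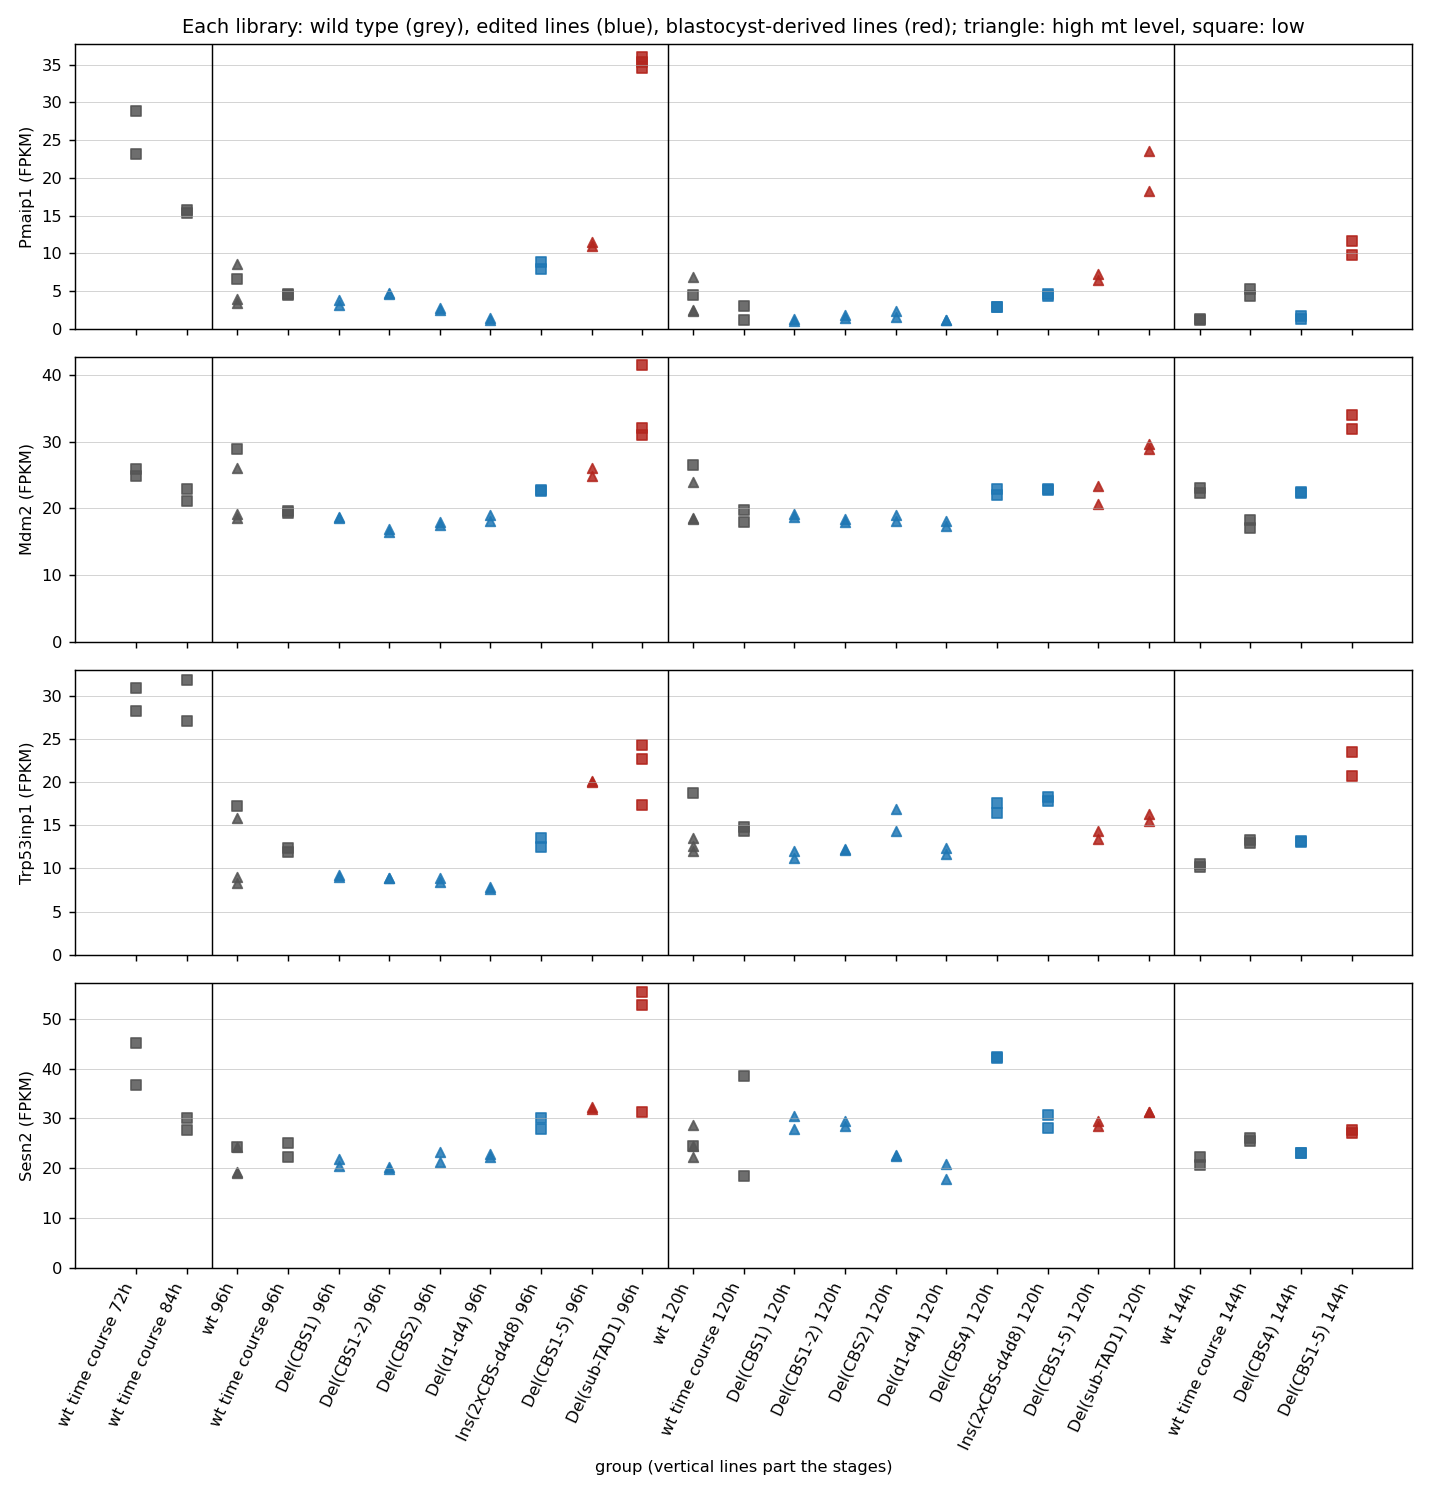
Pmaip1, Mdm2, Trp53inp1 and Sesn2 (FPKM, linear axes from 0) in every library of the groups of 72 h, 84 h, 96 h and 120 h, and of 144 h. Grey is wild type, blue the edited lines, red Del(CBS1-5) and Del(sub-TAD1), triangles high and squares low mt level. Pmaip1 of Del(sub-TAD1) lies at 34.5 to 36.0 FPKM at 96 h, above the 72 h wild type at 23.2 and 28.8 FPKM.

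The 3 libraries of Del(sub-TAD1) at 96 h were not alike in other genes. Sesn2 measured 31.2 FPKM in replicate 1 but 55.3 and 52.7 FPKM in replicates 2 and 3, against 22.2 to 25.2 FPKM in wild type. Asns measured 76.9 FPKM in replicate 1 but 228 and 225 FPKM in the others, and Chac1, a glutathione-degrading enzyme of the ATF4 response, 4.11 FPKM but 34.9 and 31.2 FPKM. Of the 11 ATF4 targets 8 rose at 96 h and none fell, with a median of 1.31. At 120 h only Atf3 was called (0.84, adjusted p = 0.0230). Nanog split the libraries the same way, with 2.80 FPKM in replicate 1 and 23.0 and 27.5 FPKM in replicates 2 and 3. Pmaip1 did not follow this split, and all 4 member calls at 96 h remained without replicate 1. Without that library the effect on Sesn2 was called lower at 120 h than at 96 h. Whether the ATF4 targets or Nanog bear on the levels of Pmaip1 and Sesn2 was not tested.

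Other p53 targets moved both ways in Del(sub-TAD1). At 96 h 7 of 27 rose and 1 fell, and at 120 h 3 rose and 1 fell. Perp had the largest rise at both stages (2.10, adjusted p = 0.0260, and 2.62, adjusted p = 0.0218), and Btg2 rose at 96 h (1.09, adjusted p = 0.00304). Aen, a nuclease activated by p53, was the one that fell, by 1.13 at 96 h (39.9 to 18.2 FPKM, adjusted p = 4.99e-08) and by 0.70 at 120 h (45.9 to 28.3 FPKM, adjusted p = 0.00149). Of 15 regulators of p53, only Trp73 was called at 96 h (0.254 to 0.697 FPKM, adjusted p = 0.0473) and none at 120 h.

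Pmaip1 was read beside the pluripotency markers, whose sum, mostly Pou5f1, was highest in wild type at 72 h, as was the stage mean of Pmaip1. In Del(sub-TAD1) at 120 h the 4 markers summed to 9.78 and 10.3 FPKM, inside the controls of 8.31 to 86.1 FPKM, while 3 of 4 endoderm markers rose, with sums of 58.4 and 71.5 FPKM against 7.85 to 29.3 FPKM. Their part in the level of Pmaip1 was not tested. In the 13 other libraries with a sum between 5 and 20 FPKM, Pmaip1 measured between 1.26 and 4.67 FPKM, with a median of 2.56 FPKM. At 96 h the sums of Del(sub-TAD1) were 65.6 to 198 FPKM, against 39.3 to 70.8 FPKM in the controls, and 1 of the 4 rose (Esrrb). In the 8 other libraries between 50 and 250 FPKM, Pmaip1 measured between 4.53 and 11.6 FPKM. Outside Del(sub-TAD1), no library from 96 h on exceeded 11.7 FPKM of Pmaip1. The genes whose levels ran most like Pmaip1 over the 61 libraries were Cpeb1, Hspbap1 and Klf9 (Pearson r of 0.88, 0.88 and 0.87).

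**Figure D5:**
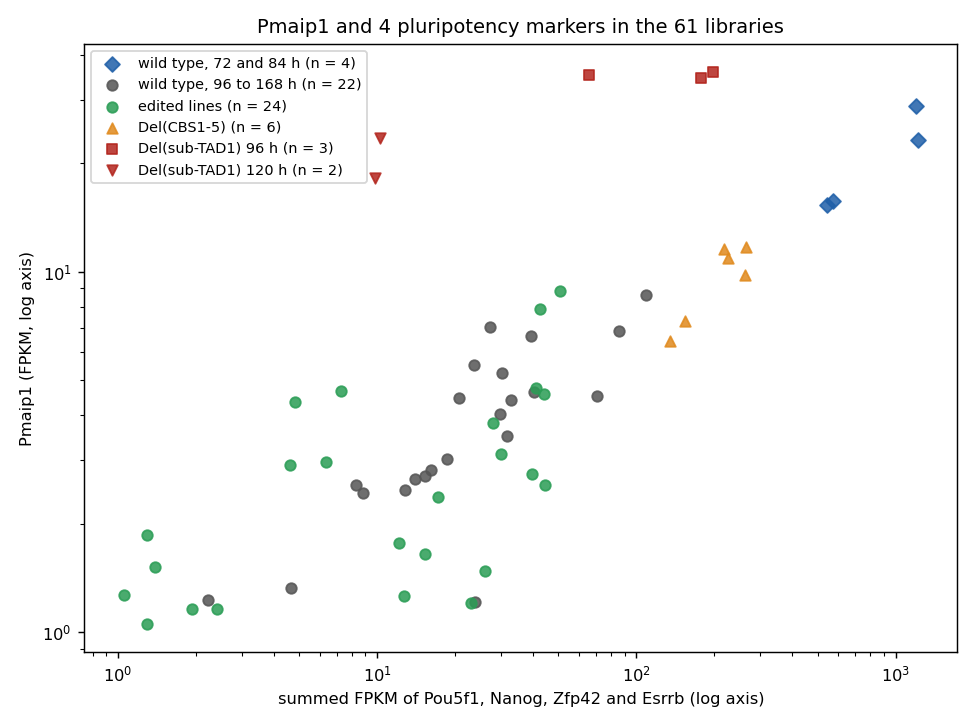
Pmaip1 against the summed FPKM of the pluripotency markers Pou5f1, Nanog, Zfp42 and Esrrb in the 61 libraries, both on log axes. The 5 libraries of Del(sub-TAD1) lie above the others at the same marker level, at 18.3 to 36.0 FPKM of Pmaip1, and Del(CBS1-5) lies at marker sums of 135 to 264 FPKM, between those of wild type at 84 h and at later stages.

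The lines derived from blastocysts were compared with the 4 edited deletion lines at 120 h, where all are in the high mt set. Pmaip1 was higher by 2.95 ± 0.30 (adjusted p = 3.27e-09): it measured 6.43 and 7.32 FPKM in Del(CBS1-5) and 18.3 and 23.6 FPKM in Del(sub-TAD1), against 1.05 to 2.37 FPKM in the 8 edited libraries. Mdm2 was higher by 0.46 ± 0.10 (adjusted p = 0.000617), with 20.6 to 29.7 FPKM against 17.4 to 19.2 FPKM. In both genes the groups did not overlap. These were 2 of 10 members, against 26.4% of all genes, and both calls remained with each of the 12 libraries left out. Trp53 was higher too (0.32, adjusted p = 0.0110), as were 10 of 27 other p53 targets, with 1 lower. All 4 pluripotency markers were higher as well, although the lines differed: their sums were 135 and 154 FPKM in Del(CBS1-5) but 9.78 and 10.3 FPKM in Del(sub-TAD1), against 15.2 and 17.2 FPKM in Del(CBS2) and at most 2.41 FPKM in the other edited deletion lines. In wild-type replicates 1 to 3 of 120 h, also of the high mt set, Pmaip1 measured 2.44, 2.56 and 6.87 FPKM. Mdm2 measured 18.5, 18.6 and 23.9 FPKM in them, so replicate 3 reached the level of Del(CBS1-5) in both genes. Whether the difference belongs to the deletions, to the origin of the lines, to their strain background or to separate cultures cannot be told apart. No wild-type line derived from blastocysts is in the data analysed here.

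Some members overlap neighboring genes in the annotation. Bax and Sesn2 overlap the annotated genes Gm45808 and Gm12981 on the same strand in GENCODE vM21, so part of their fragments could have been assigned to either gene, and Cdkn1a overlaps a gene on the opposite strand, which stranded libraries tell apart if counted by strand.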

How the data were processed

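The authors prepared stranded poly-A libraries, removed adapters (cutadapt 1.16), mapped reads to mm10 (STAR 2.7.7a), kept those that mapped uniquely and ran Cufflinks 2.2.1 on an Ensembl-based annotation. The deposited values are FPKM per gene, so counts were not used. No member had a failed estimate. Log2(FPKM + 0.1) of 17098 genes, those whose mean reached 1 FPKM in any condition, was fitted over the 61 libraries with limma 3.58.1 (R 4.3.3), without trend or robust moderation and with no covariates. The time course used 1 coefficient per labelled group, the mutants 1 per genotype, stage and mt level (mt-Co2 and mt-Co3 above 100 FPKM or not). P-values were two-sided and adjusted by Benjamini-Hochberg over all genes tested, with a threshold of 0.05. The fit was tested on simulated data. Depth was read from the width of the deposited 95% intervals, which implied depths of 7.72 to 16.4 (in units of 1e6 fragments) per library as a lower limit. All 10 members were named, regulators of p53, the 2 called genes with the largest rise and fall of other lists in a comparison described, further listed genes whose values stand beside a result (chosen after their values were seen), and genes most like a member by correlation over the libraries. Members and lists were chosen with earlier results of these data known. Alternatives were other pseudocounts, filters, scalings, moderation, controls and fits, a replicate block, and leaving out each library. Figures were drawn and values gathered with Python 3.11.15, pandas 2.3.3, numpy 2.4.6 and matplotlib 3.10.9.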

Additional observations from a re-analysis of the deposited data

Results flagged for a closer look

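Ccng1 in wild type at 120 h, outside the time course, measured 113 FPKM in replicate 4, far from the other 3 libraries, at 69.0 to 74.2 FPKM. Its gap to the nearest of them was 0.883 of the whole range, above Dixon's critical value for 4 samples at the 95% level. It was the 1 value to pass among 30 groups of values tested, and chance passes about 1 in 20. Replicate 4 is the library of low mt level and the other 3 are of high mt level.

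The effect of Del(CBS1-5) on Bbc3 differed between stages by a test of the difference (log2 -1.58, 144 h minus 96 h, adjusted p = 0.00168 by limma), with a higher mutant level at 96 h and a lower one at 144 h. The effect on Trp53inp1 was larger at 144 h than at 120 h (0.79, adjusted p = 0.0320), and so was that on Eda2r (0.56, adjusted p = 0.0291). The last 2 were each lost in 6 of 11 fits that left out a library, whereas that of Bbc3 was kept in all 11.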

How the results depend on the processing

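The counts of members called over the 8 stages and from 72 h to 168 h stayed within 1.5 times of the values above under every alternative. With only the groups compared in the fit, 1 of the 15 calls between consecutive stages, 4 of the 18 calls in mutants, 0 of the 3 between stages of a mutant and 0 of the 2 between mt levels were made, but 9 in place of 2 between blastocyst-derived and edited lines. With all wild-type libraries of the stage outside the time course as controls, there were 28 calls in mutants, 4 in place of 0 in the edited lines together and 7 between stages of a mutant. Between mt levels in wild type there were 1 without the filter on low values, 0 with median-of-ratios size factors and 13 with equal sums without mitochondrial genes, and the size factors gave 1 call in place of 0 between 120 h and 96 h in wild type outside the time course. Leaving out 1 library gave 1 to 6 calls between stages of a mutant (6 without wild-type replicate 3 of 96 h), 1 to 5 between mt levels (5 without that library or without replicate 2 of the time course at 96 h) and 0 to 4 between 120 h and 96 h in wild type. The causes were not tested.

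With the replicate number as a block there were 37 calls in mutants, 1 in the edited lines together, 7 between blastocyst-derived and edited lines, 10 between stages of a mutant, 4 between mt levels and 1 between 120 h and 96 h in wild type. Under the block, the difference of Ccng1 between mt levels at 120 h changed sign, from -0.33 to 0.29. Few same-numbered libraries varied together. Of their correlations, 2 of 56 in the time course and 5 of 383 elsewhere were above 0.1, with a highest of 0.42 elsewhere. Those elsewhere mix genotypes, stages and mt levels, so they cannot settle whether some libraries were paired by number.

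Of 46 single calls, 46 were kept with trend and robust moderation, 46 with a pseudocount of 1 FPKM, 43 with size factors, 41 without the filter, 40 with equal sums and 11 with only the groups compared. With 1 library left out, 180 of 252 were kept. With 2 libraries in most groups, a small difference cannot be told from the spread between libraries, and depth in fragments is known only as a lower limit.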
